A study of Mus musculus with 20 samples.

Results

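The Myc, Max and Mxd network is a family of transcription factors that pair with each other and bind the same short DNA motif. Its 9 members, Myc, Max, Mxd1, Mxi1, Mxd3, Mxd4, Mnt, Mga and Mlx, were chosen by symbol for their shared function and not by their values. All 9 were found in the count table of each RNA-seq experiment, among 13107 genes of the Myc experiment and 11210 genes of the HU experiment, and all 9 were tested in both, since the filter on low counts removed 0 genes. Every group consists of the liver cancer line p19/Nras, from mouse, with an Nras transgene and without p19/Arf. In the Myc experiment, Trim33-WT cells (sgCtrl) and a pair of lines with Trim33 deleted by CRISPR (sgTrim33), Trim33-KO1 and Trim33-KO2, carried the empty vector pWZL, called Ctrl, or a Myc vector. In the HU experiment, Trim33-WT and Trim33-KO cells were given vehicle or 1 mM hydroxyurea (HU, which blocks ribonucleotide reductase and stalls replication forks) for 4 h. Each of the 10 groups holds 2 libraries, 20 in all. The labels do not say whether a KO line is a single clone, which KO line was used with HU, or whether the libraries of a group came from separate cultures, so that p-values measure only the spread between these libraries.

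Myc binds DNA at the E-box, CACGTG, as a dimer with Max, and Myc-Max dimers activate genes of ribosome production, metabolism and growth. The Mxd proteins (Mxd1, Mxi1, Mxd3 and Mxd4) and Mnt compete with Myc for Max and repress the same kind of sites through the Sin3 corepressor, and Mga, which also holds a T-box, pairs with Max in the Polycomb complex PRC1.6. Mlx is the Max-like partner of the glucose-sensing factors MondoA (Mlxip) and ChREBP (Mlxipl), and can also pair with some Mxd proteins and Mnt. In liver tumours, MYC is a frequent driver, and Myc expression in hepatocytes is a common way to induce liver cancer in mice.

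The E-box was looked for, on both strands, in RefSeq promoters of build GRCm38.p6, which run from 250 bases before a start site to 50 bases after it. They were matched by symbol for 8 of the 9 members, with 10 windows in all. The letters CACGTG stood in the promoters of 4 of these 8 members (Max, Mxd4, Mnt and Mlx), and in 7.15% of all 32851 promoters. In Max the motif begins 3 bases before the start site and runs across it, in Mlx it lies 40 to 35 bases before the start, in Mnt 123 to 118, and in Mxd4 219 to 214. No member's promoter held TTTGAA (17.9% of all promoters), TTTCCCGC (1.07%) or TTTGGCGC (0.514%), 3 motifs of cell cycle genes of which the last pair are E2f-type sites. A match is a description of letters and not evidence of binding. The promoters with the E-box are shown 5′ to 3′ on the strand of the gene, with 250 bases before the start and 10 from it, and the E-box in capitals. The promoter of Mxd3, the member with the widest range of levels in the Myc experiment, is added for comparison and holds none of the 4 motifs. Only these exact letters were looked for, so that other forms of an E2f-type site may be present.
Max, chr12:76962239-76962498, minus strand: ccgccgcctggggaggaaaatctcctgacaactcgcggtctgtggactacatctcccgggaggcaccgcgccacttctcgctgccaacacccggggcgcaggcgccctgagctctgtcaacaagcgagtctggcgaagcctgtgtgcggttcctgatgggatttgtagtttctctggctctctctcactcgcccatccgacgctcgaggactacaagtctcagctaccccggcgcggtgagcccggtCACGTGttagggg
Mlx, chr11:101087040-101087299, plus strand: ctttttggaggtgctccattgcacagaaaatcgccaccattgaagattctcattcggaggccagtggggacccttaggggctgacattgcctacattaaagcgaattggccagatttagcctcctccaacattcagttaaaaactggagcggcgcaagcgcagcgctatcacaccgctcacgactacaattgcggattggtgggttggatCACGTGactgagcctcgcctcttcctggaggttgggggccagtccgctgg
Mnt, chr11:74830674-74830933, plus strand: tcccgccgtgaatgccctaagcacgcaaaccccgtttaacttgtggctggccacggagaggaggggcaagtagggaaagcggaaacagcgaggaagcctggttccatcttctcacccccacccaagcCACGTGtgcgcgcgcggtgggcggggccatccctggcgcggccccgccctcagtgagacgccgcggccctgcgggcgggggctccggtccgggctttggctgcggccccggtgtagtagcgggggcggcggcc
Mxd4, chr5:34187701-34187960, minus strand: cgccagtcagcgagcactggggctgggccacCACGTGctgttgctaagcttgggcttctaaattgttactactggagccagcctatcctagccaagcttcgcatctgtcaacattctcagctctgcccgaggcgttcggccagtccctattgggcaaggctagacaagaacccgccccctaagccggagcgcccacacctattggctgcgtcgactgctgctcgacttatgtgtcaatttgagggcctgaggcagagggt
Mxd3, chr13:55329722-55329981, minus strand: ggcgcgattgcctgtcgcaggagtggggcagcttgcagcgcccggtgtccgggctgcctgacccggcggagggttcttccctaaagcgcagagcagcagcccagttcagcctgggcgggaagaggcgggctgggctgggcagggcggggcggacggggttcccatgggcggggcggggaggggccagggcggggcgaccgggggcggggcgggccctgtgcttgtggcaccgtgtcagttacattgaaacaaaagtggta

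Each library held 14753177 to 17949430 counts in the Myc experiment, against 2315327 to 3082202 in the HU experiment, so that the HU experiment is less precise, above all for Mxd1, Mxd3 and Mxd4, which had 4 to 44 counts per library there. Levels are CPM, each library's counts over its total on a common scale, corrected by edgeR's TMM factors, and were tested between groups of the same experiment only. Trim33, the deleted gene, fell with the Ctrl vector in KO1 (log2FC −0.99) and KO2 (−0.31), and in KO vehicle against WT vehicle (−1.49). Its mRNA does not check the protein. With the Myc vector, Trim33 mRNA did not follow the labels in KO1. KO1 Myc libraries had 185 and 193 CPM, more than the 131 and 155 CPM of WT Myc, while KO2 Myc had 124 and 125 CPM. Against its own Ctrl group, Trim33 fell in WT Myc (log2FC −0.82) and KO2 Myc (−0.71) and rose in KO1 Myc (0.57). Whether a label is wrong cannot be told from this mRNA. The WT Myc libraries also differed from each other more than those of any other group, with a mean squared difference of 10.8 times counting noise against 2.17 to 4.46 in the other 9 groups. The Myc-vector groups are named below as their libraries are labelled. Of 12 hepatocyte markers, Afp had a row in the Myc experiment, with summed levels from 0.221 to 33 CPM, and Afp and Apob had a row in the HU experiment. In the Myc experiment, Afp was at 30.2 to 33 CPM in WT Ctrl, 0.798 to 0.92 CPM in KO1 Ctrl and 8.13 to 8.56 CPM in KO2 Ctrl. It was at 19.5 to 25.1 CPM in WT Myc, 2.53 to 3.55 CPM in KO1 Myc and 0.221 to 0.297 CPM in KO2 Myc. The part of this difference in the results below was not tested. Of 7 epithelial or bile duct markers, 4 (Krt8, Krt18, Krt19 and Sox9) summed to 1940 to 4490 CPM in the Myc experiment, and of 8 fibroblast or stellate markers, 6 summed to 2870 to 3930 CPM. The epithelial sum was highest in WT Ctrl, at 4340 to 4490 CPM, and lowest in KO2 Myc, at 1940 to 1980 CPM, and its part in the results below was not tested. The Cd68 level, the only immune marker with a row, stayed at or below 6.3 CPM, and 0 of 4 endothelial markers had a row.

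On a scale that compares genes, CPM per kilobase of exon (GENCODE vM1, mm9), Myc was the most abundant member and Max the next in all 10 groups. In WT Ctrl the mean level was 160 CPM per kilobase for Myc, 34.4 for Max, 22.2 for Mlx, 12.6 for Mnt, 9.45 for Mxi1, 5.29 for Mga, 2.24 for Mxd4, 1.86 for Mxd1 and 0.585 for Mxd3. The 6 antagonists of Myc that pair with Max, summed, were close in level between the 3 Ctrl groups, at 32 and 32.1 CPM per kilobase in WT Ctrl, with KO1 Ctrl at 34.1 and 33.8 and KO2 Ctrl at 34 and 33.8, while Myc itself differed more between them. Myc therefore made up 83.3% and 83.4% of the Max partner transcripts in WT Ctrl, with KO1 Ctrl at 66.8% and 68.1% and KO2 Ctrl at 69.5% and 70.4%. In the Myc-vector groups the share was 78.6% to 79.9% in WT Myc, 83% to 83.7% in KO1 Myc and 79% to 81.2% in KO2 Myc. In the HU experiment the share ran from 70.3% to 76.3% in WT vehicle, 73.7% to 76.7% in KO vehicle, 76.5% to 77.8% in WT HU and 68.4% to 70.7% in KO HU. These are shares of mRNA, with no test, and not of protein.

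**Figure D1:**
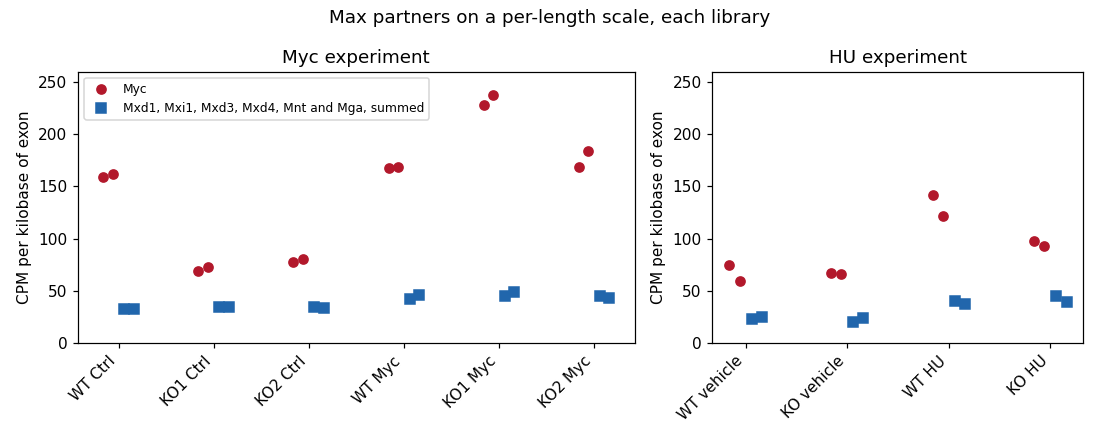
Myc (circles) and the summed Max-binding antagonists Mxd1, Mxi1, Mxd3, Mxd4, Mnt and Mga (squares) in each library, in CPM per kilobase of exon (vertical axis, from 0), by group (horizontal axis) and experiment (left and right). The antagonist sum stays between 32 and 48.6 in the Myc experiment while Myc ranges from 68.6 to 237.7, and in the HU experiment both are higher in each HU group than in its vehicle group.

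The comparison of Trim33-KO with Trim33-WT cells under the Ctrl vector asks how loss of Trim33 bears on the network. In KO1, 7 of the 9 members passed the test (2 higher, 5 lower), where 52.2% of all genes passed, 25.5% higher and 26.7% lower. In KO2, 6 members passed (2 higher, 4 lower), where 49.9% of all genes passed, 23.3% higher and 26.6% lower. The WT Ctrl libraries serve in both comparisons. The median log2FC of the members was −0.489 in KO1 and −0.43 in KO2, beside −0.00362 and −0.0112 for all genes. With only 9 members, these counts and medians were not tested against those of all genes. What follows describes the members one by one. The test was edgeR's quasi-likelihood test with Benjamini-Hochberg adjustment over all genes, called at an adjusted p below 0.01, and errors are standard errors of the log2FC. In bulk RNA, fewer cells that express a gene and less RNA of it per cell cannot be told apart.

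Myc (Entrez 17869, chr15:61816946-61821929, plus strand, mm9) was lower in each KO line. Its level was 433 and 439 CPM in WT Ctrl, while KO1 Ctrl had 186 and 196 CPM and KO2 Ctrl 210 and 219 CPM. All 4 KO libraries lay below both WT libraries. For KO1 this was 2.28-fold, a log2FC of −1.19 ± 0.0564 (edgeR adjusted p = 3.34e-11), and for KO2 2.03-fold, or −1.02 ± 0.0561 (adjusted p = 2.52e-10). Max (Entrez 17187, chr12:78038256-78063235, minus strand), the partner that Myc and its antagonists share, was at 67.3 and 70.8 CPM in WT Ctrl, while KO1 Ctrl had 49.8 and 44.2 CPM and KO2 Ctrl 46.2 and 46.4 CPM. Max was lower in each KO library than in each WT library. Its log2FC was −0.55 ± 0.0705 for KO1 (edgeR adjusted p = 3.93e-06), and for KO2 −0.57 ± 0.0705 (2.95e-06).

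Among the antagonists, Mxd3 (Entrez 17121, chr13:55426529-55431119, minus strand), an Mxd protein known from proliferating cells, showed the largest difference of the 9. WT Ctrl held 18 and 17 of its counts, KO1 Ctrl 126 and 123, and KO2 Ctrl 160 and 153, which are 1.27 and 1.16 CPM, 8.38 and 8.08 CPM, and 10.5 and 9.95 CPM. The groups stood far apart, and the spread within each was small. KO1 was 6.73-fold higher, a log2FC of 2.75 ± 0.208 (edgeR adjusted p = 8.67e-09), and KO2 8.34-fold, or 3.06 ± 0.199 (adjusted p = 2e-09). The Mxd3 gene shares 104 bases with Prelid1 on the opposite strand, and whether the counting used strand is not given in the sources used here, so that reads from the shared bases cannot be told apart. The log2FC of Prelid1 itself was 0.59 in KO1 and 0.55 in KO2.

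Mxd4 (Entrez 17122, chr5:34516536-34530369, minus strand), an Mxd protein of resting and differentiated cells, was also higher. Its level was 8.05 and 9.37 CPM in WT Ctrl, with 17.4 and 13.9 CPM for KO1 Ctrl and 13.7 and 14.4 CPM for KO2 Ctrl, and the KO libraries did not overlap those of WT. KO1 gave a log2FC of 0.84 ± 0.126 (edgeR adjusted p = 2.33e-05), while KO2 gave 0.68 ± 0.128 (adjusted p = 0.000228). Mxd1 (Entrez 17119, chr6:86597038-86619153, minus strand), the Mxd protein induced in differentiation, was at 8.13 and 9.23 CPM in WT Ctrl, with KO1 Ctrl at 6.25 and 4.8 CPM and KO2 Ctrl at 6.99 and 5.46 CPM. It passed the test in KO1 (log2FC −0.65 ± 0.163, adjusted p = 0.00241) and not in KO2 (−0.48 ± 0.159, adjusted p = 0.0158). The call in KO1 was lost without replicate 2 of WT Ctrl (−0.56, adjusted p = 0.0334) and without replicate 2 of KO1 Ctrl (−0.47, adjusted p = 0.0474). Mxi1 (Entrez 17859, chr19:53384996-53450300, plus strand), the remaining Mxd protein, whose gene shares 201 bases with Gm10197 on the opposite strand, was at 51.8 to 54.5 CPM in WT Ctrl and at 55.9 to 58.5 CPM in the KO Ctrl libraries, and passed in neither line (0.11 ± 0.0738 and 0.09 ± 0.0738, edgeR adjusted p = 0.195 and 0.302).

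Mnt (Entrez 17428, chr11:74644422-74659227, plus strand), the widely expressed Max partner, was at 59.2 and 57.4 CPM in WT Ctrl, with KO1 Ctrl at 49.7 and 52.3 CPM and KO2 Ctrl at 42 and 44.5 CPM. It fell in KO2 (log2FC −0.43 ± 0.0785, edgeR adjusted p = 0.000177), and its value in KO1 did not pass (−0.19 ± 0.0775, adjusted p = 0.0403). Mga (Entrez 29808, chr2:119722964-119795317, plus strand) was at 77.7 and 84.7 CPM in WT Ctrl, with KO1 Ctrl at 53.4 and 55.4 CPM and KO2 Ctrl at 71.6 and 69.7 CPM. It fell in KO1 (−0.58 ± 0.0998, adjusted p = 9.46e-05), and its value in KO2 did not pass (−0.20 ± 0.0976, adjusted p = 0.0858). Neither uncalled value is stable in its call: with the Ctrl-vector libraries alone in the fit, Mnt in KO1 passed at an adjusted p of 0.00842 and Mga in KO2 at 0.00566. Between KO2 Ctrl and KO1 Ctrl, where 18.3% of all genes passed, 8.33% higher and 9.96% lower, Mga was the only member that passed (0.38 ± 0.1, adjusted p = 0.0096), and the call was lost without any 1 of the 4 libraries (adjusted p = 0.0433 to 0.0789).

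Mlx (Entrez 21428, chr11:100948591-100953521, plus strand) fell in both lines, from 43.2 and 45.5 CPM in WT Ctrl, with KO1 Ctrl at 32.9 and 30.3 CPM and KO2 Ctrl at 30.3 and 28.9 CPM. The KO libraries lay below the WT libraries throughout. KO1 gave a log2FC of −0.49 ± 0.0842 (edgeR adjusted p = 9.26e-05), while KO2 gave −0.58 ± 0.0847 (adjusted p = 1.84e-05). It shares 385 bases with Psmc3ip on the opposite strand, and the log2FC of Psmc3ip was 0.43 in KO1 and 0.27 in KO2, where its adjusted p was 0.0586. Among the partners of Mlx, Mlxip, which encodes MondoA and was chosen after its values were seen, rose in KO2 (log2FC 0.39, edgeR adjusted p = 0.00192), and in KO1 its log2FC was 0.23 (adjusted p = 0.0469).

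**Figure D2:**
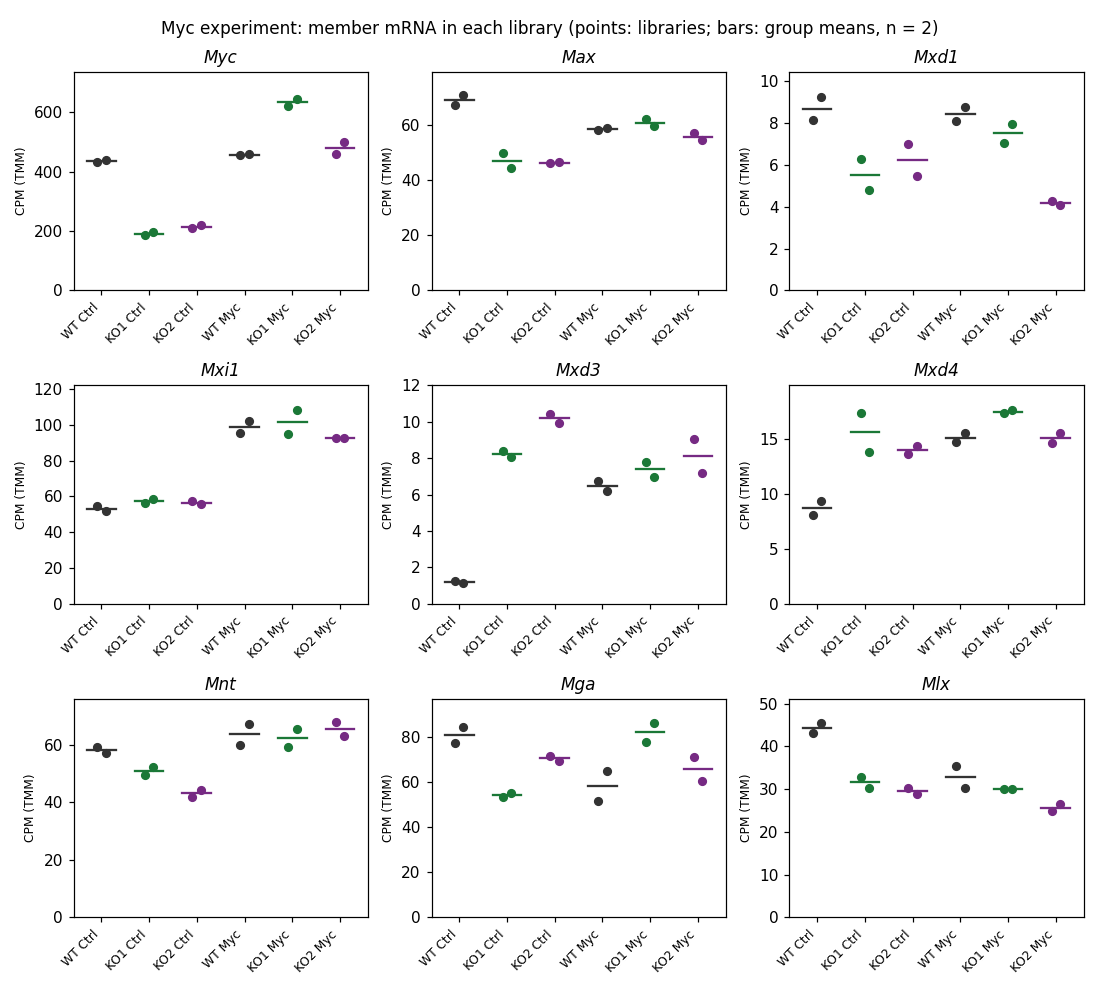
Level of each member in each library of the Myc experiment, in TMM-scaled CPM (vertical axes, each from 0), by group (horizontal axes), with points for libraries and bars for the mean of 2. Myc is low in the KO Ctrl groups, Mxd3 and Mxd4 are low in WT Ctrl alone, and Mxi1 is higher in the 3 Myc-vector groups than in the 3 Ctrl groups.

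The comparison of the Myc vector with the Ctrl vector asks how the network responds to added Myc. Whether reads from the vector are counted with those of endogenous Myc is not given in the sources used here. Myc mRNA was at 456 and 458 CPM in WT Myc, against 433 and 439 CPM in WT Ctrl, a log2FC of 0.07 ± 0.0548 that did not pass (edgeR adjusted p = 0.31). It was at 621 and 646 CPM in KO1 Myc and at 459 and 499 CPM in KO2 Myc, each above its own Ctrl group. KO1 gave a log2FC of 1.73 ± 0.0568 (edgeR adjusted p = 1.2e-12), while KO2 gave 1.16 ± 0.056 (adjusted p = 9.14e-11). The difference between the vector's effect in a KO line and that in WT was 1.66 ± 0.0784 for KO1 and 1.09 ± 0.0781 for KO2 (adjusted p = 1.45e-10 and 1.87e-08 from edgeR's test of the interaction). Between the Myc-vector groups, Myc was 1.39-fold higher in KO1 than in WT (0.47 ± 0.0545, adjusted p = 5.71e-06), and in KO2 it did not differ beyond the spread (0.07 ± 0.0546, adjusted p = 0.314).

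Mxi1 was the antagonist that was higher with the Myc vector in all 3 backgrounds. Its level was 51.8 to 58.5 CPM over the 6 Ctrl libraries and 92.5 to 108 CPM over the 6 Myc-vector libraries, with no overlap. WT gave a log2FC of 0.90 ± 0.0711 (edgeR adjusted p = 3.8e-08), KO1 0.82 ± 0.0701 (8.97e-08) and KO2 0.71 ± 0.0702 (4.81e-07). It rose in WT, where the counted Myc mRNA did not pass the test. The vector effect on Mxi1 did not differ from that in WT beyond the spread in KO1 (edgeR adjusted p = 0.544) or KO2 (adjusted p = 0.138).

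In WT cells, 6 members passed the test between the Myc and the Ctrl vector (3 higher, 3 lower), where 44.3% of all genes passed, 21.6% higher and 22.7% lower. Besides Mxi1, these were Mxd3, at 6.76 and 6.21 CPM in WT Myc (104 and 105 counts), and Mxd4, at 14.7 and 15.6 CPM, both above WT Ctrl. The log2FC was 2.41 ± 0.216 for Mxd3 (edgeR adjusted p = 1.54e-07) and 0.80 ± 0.126 for Mxd4 (adjusted p = 5.83e-05). For Prelid1, which shares bases with Mxd3, it was 0.58, and its part in the reads of Mxd3 was not tested. Mlx fell to 35.5 and 30.2 CPM (−0.43 ± 0.0833, adjusted p = 0.000337), and Mga to 51.8 and 65.2 CPM (−0.47 ± 0.0986, adjusted p = 0.000728). The Mga call was lost without replicate 2 of WT Ctrl (−0.41, adjusted p = 0.0164). Since the WT Myc libraries stood apart, Mga was also read with each left out, at −0.32 without replicate 1 and −0.65 without replicate 2 (adjusted p = 0.0039 and 2.07e-06), and Mlx at −0.55 and −0.32 (1.14e-05 and 0.00298). Mxd3 gave 2.35 and 2.47 and Mxi1 0.95 and 0.85 in the same fits, all past the threshold. Max was at 58.2 and 59.1 CPM in WT Myc, a log2FC of −0.23 ± 0.0688 that passed narrowly (adjusted p = 0.00834) and was lost without any 1 of the 4 libraries (adjusted p = 0.011 to 0.0768) and in DESeq2 (0.0168). Mxd1 and Mnt did not pass (adjusted p = 0.823 and 0.159 in edgeR's test).

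In KO1, 5 members passed between the Myc and the Ctrl vector, all 5 higher, where 36.1% of all genes passed, 17.9% higher and 18.2% lower. In KO2, 4 members passed, all 4 higher, where 38.8% of all genes passed, 20.2% higher and 18.6% lower. Besides Myc and Mxi1, Max rose in each, to 62.2 and 59.5 CPM in KO1 Myc (0.37 ± 0.0703, edgeR adjusted p = 0.000375) and to 56.9 and 54.4 CPM in KO2 Myc (0.26 ± 0.0706, adjusted p = 0.00513). The call in KO1 was lost without replicate 2 of KO1 Ctrl (0.29, adjusted p = 0.0135), and that in KO2 without any 1 of the 4 libraries (adjusted p = 0.0142 to 0.0436) and in DESeq2 (0.021). Mnt rose to 67.9 and 63.3 CPM in KO2 Myc (0.60 ± 0.0768, adjusted p = 8.36e-06). In KO1 Myc it was at 59.2 and 65.4 CPM, where its rise passed (0.29 ± 0.0762, adjusted p = 0.0052) but was lost without KO1 Ctrl replicate 1 (0.25, adjusted p = 0.0575), KO1 Ctrl replicate 2 (0.33, 0.0179) or KO1 Myc replicate 2 (0.21, 0.0738). Mga rose in KO1, to 78 and 86.6 CPM (0.60 ± 0.0988, adjusted p = 0.000114), and did not pass in KO2, at 71.2 and 60.5 CPM (adjusted p = 0.4).

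The vector's effect differed from that in WT for 5 members in KO1 (3 higher, 2 lower), where 37.3% of all genes passed the interaction test, 19.2% higher and 18.1% lower. It differed for 5 in KO2 (3 higher, 2 lower), where 32.8% passed, 16.6% higher and 16.2% lower. Each of these differences uses the Ctrl libraries in which the lines already differed. Mxd3 was at 7.79 and 6.98 CPM in KO1 Myc and at 9.08 and 7.18 CPM in KO2 Myc, close to its level in the KO Ctrl groups, and the difference in effect was −2.56 ± 0.262 for KO1 and −2.74 ± 0.256 for KO2 (edgeR adjusted p = 7.45e-07 and 3.4e-07). For Prelid1, which shares bases with Mxd3, it was −0.68 and −0.72. For Max it was 0.61 ± 0.0984 and 0.50 ± 0.0985 (adjusted p = 9.14e-05 and 0.000625). For Mxd4, at 14.7 to 17.6 CPM over the 4 Myc-vector libraries of the KO lines, it was −0.63 ± 0.168 and −0.69 ± 0.17 (adjusted p = 0.00526 and 0.00365). The Mxd4 call for KO1 was lost without WT Ctrl replicate 1 (−0.53), KO1 Ctrl replicate 1 (−0.46) or KO1 Myc replicate 1 or 2 (−0.60 and −0.64), and in DESeq2 (adjusted p = 0.0175). The Mxd4 call for KO2 was lost without WT Ctrl replicate 1 (−0.58), KO2 Ctrl replicate 2 (−0.65) or KO2 Myc replicate 1 (−0.64). Mga differed for KO1 (1.07 ± 0.14, adjusted p = 1.07e-05), and Mnt for KO2 (0.47 ± 0.108, adjusted p = 0.00203), where the call was lost without WT Ctrl replicate 1 (0.45), KO2 Ctrl replicate 1 (0.43) or KO2 Myc replicate 1 (0.42). Without WT Myc replicate 1 or 2, all 10 differences kept their direction and call, and that of Mga ran from 0.91 to 1.24.

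Set in order over the 6 groups, Mxd3 and Mxd4 had WT Ctrl as the lowest group and Mlx had it as the highest, and WT Ctrl was in each case the only group set apart from its neighbour by a difference that passed. The other 5 groups ran from 6.49 to 10.2 CPM in mean level for Mxd3, from 14 to 17.5 CPM for Mxd4 and from 25.7 to 32.9 CPM for Mlx, with no neighbouring pair past the test. The ends of these ranges did differ for Mxd3 and Mlx. Mxd3 was lower in WT Myc than in KO2 Ctrl (log2FC −0.65 ± 0.138, edgeR adjusted p = 0.000741). Mlx was lower in KO2 Myc than in WT Myc (−0.35 ± 0.0865, adjusted p = 0.00306). Over the 12 libraries, the Pearson correlation of log2 CPM was 0.865 between Mxd3 and Mxd4 and −0.873 between Mxd3 and Mlx. The libraries of a group share their cells, so that these values are descriptions. Among the genes most like Myc over the 12 libraries, of 10296 compared, were Slc1a5, a glutamine transporter (0.986), and Lrig3 (0.976).

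Between the groups with the Myc vector, 2 members passed in KO1 against WT, both higher, where 25.1% of all genes passed, 12.6% higher and 12.5% lower. In KO2 against WT, 2 passed, both lower, where 35.2% of all genes did, 17.2% higher and 18% lower. The 2 comparisons share the WT Myc libraries. Apart from Myc, Mga was higher in KO1 Myc (0.49 ± 0.0977, edgeR adjusted p = 0.000949), a call lost without KO1 Myc replicate 2 (0.41, adjusted p = 0.0185) and kept, at 0.34 and 0.67, without WT Myc replicate 1 and 2. Mxd1 was at 4.27 and 4.09 CPM in KO2 Myc, against 8.07 and 8.75 CPM in WT Myc, or 2.01-fold lower (−1.01 ± 0.165, adjusted p = 0.000107). Against KO2 Ctrl, Mxd1 did not pass (−0.57 ± 0.176, adjusted p = 0.0122), and it passed at 0.009 with these groups alone in the fit and at 0.0091 without KO2 Ctrl replicate 2 (−0.74). Mlx was at 24.9 and 26.5 CPM in KO2 Myc (−0.35 ± 0.0865, adjusted p = 0.00306), a call lost without WT Myc replicate 1 (−0.24, adjusted p = 0.0432) or KO2 Myc replicate 1 (−0.31, adjusted p = 0.0354).

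**Figure D3:**
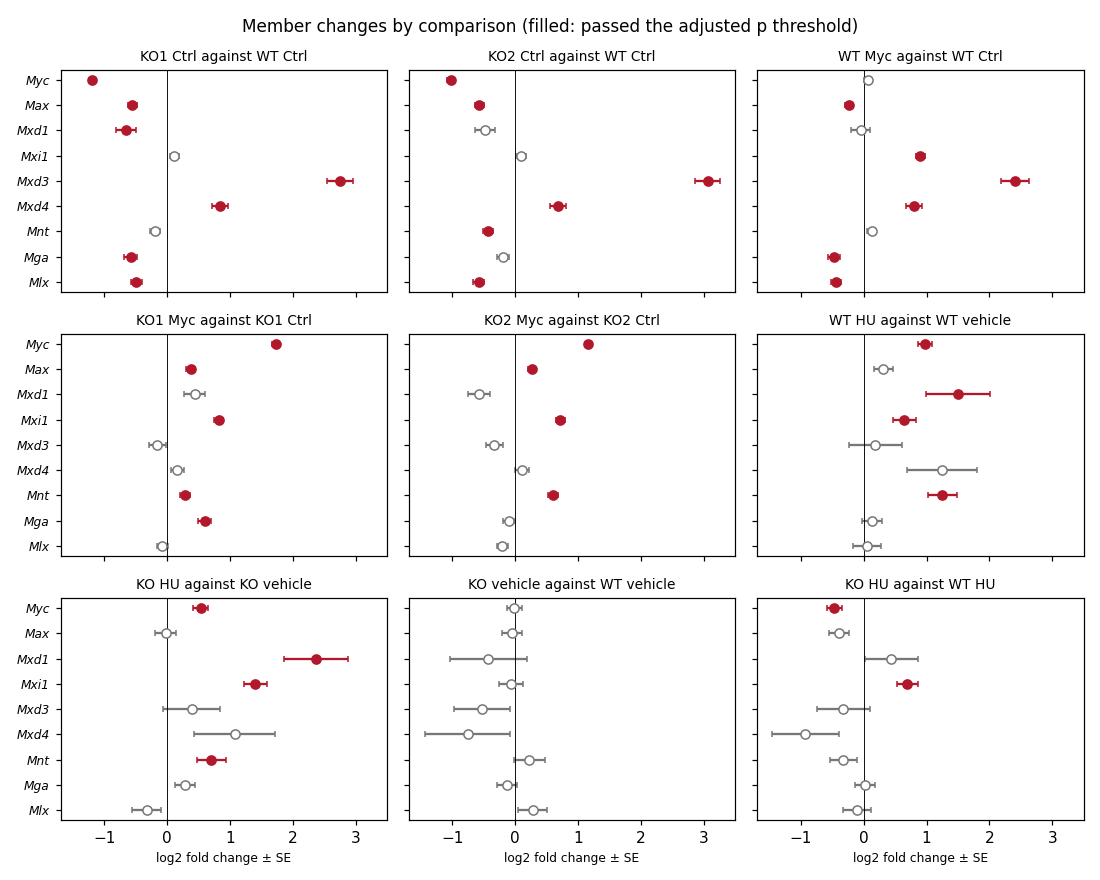
Log2 fold change of each member (horizontal axes, bars are standard errors) in 9 comparisons, from edgeR's fit with all libraries of an experiment, with filled points for members that passed the adjusted p threshold of 0.01 (Myc experiment) or 0.05 (HU experiment). Mxd3 stands farthest from 0 in the 3 comparisons with WT Ctrl, at 2.41 to 3.06, and the called members of each HU against vehicle comparison lie to the right.

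Lists of genes that work with the network were read in the same comparisons and are described by counts. Of 53 canonical Myc-activated genes tested, 29 were higher and 5 lower with the Myc vector in KO1, and 29 were higher and 3 lower in KO2. Of all genes, 17.9% and 20.2% were higher there, and 18.2% and 18.6% lower. In WT, 12 were higher and 8 lower, where 21.6% and 22.7% of all genes were higher and lower. Its median log2FC was 0.26 for KO1, 0.28 for KO2 and 0.02 for WT, beside medians of all genes of 0.01, 0.02 and 0.01. Called members of the list with the Myc vector included Shmt2, the mitochondrial serine hydroxymethyltransferase, which rose by 1.21 on the log2 scale in KO2 Myc (edgeR adjusted p = 9.14e-10), and Ccnd2, a D-type cyclin, which rose by 1.51 (adjusted p = 9.91e-12). In KO1 Myc, Hk2, a hexokinase, rose by 1.05 (adjusted p = 5.52e-09) and Ifrd2 by 0.95 (adjusted p = 4e-08). With the Ctrl vector, 21 of the 53 were lower and 7 higher in KO1, and 20 were lower and 11 higher in KO2. Of all genes, 26.7% and 26.6% were lower in these comparisons, and 25.5% and 23.3% higher. Shmt2 was among the lowest there, with a log2FC of −1.64 in KO1 (adjusted p = 9.76e-12) and −1.93 in KO2 (adjusted p = 3.06e-12), whereas Tfrc, the transferrin receptor, was higher, at 1.05 and 1.43 (adjusted p = 3.16e-07 and 9.87e-09).

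**Figure D4:**
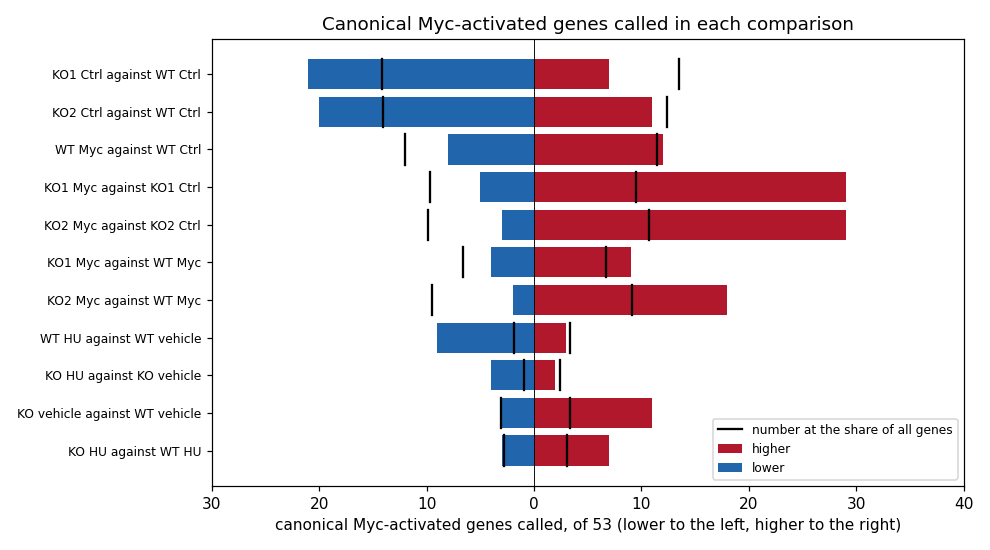
Number of the 53 canonical Myc-activated genes that passed the test in each comparison (horizontal axis, higher to the right and lower to the left of 0), with black ticks at the number that the share of all genes in that direction would give. The bars to the right reach 29 in KO1 and KO2 for the Myc against the Ctrl vector, and the bar for WT reaches 12.

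Canonical Myc-repressed genes, a list of cell cycle inhibitors, differentiation and matrix genes, were called in both directions. With the Myc vector, 7 of 20 were higher and 8 lower in WT, 5 higher and 10 lower in KO1, and 12 higher and 2 lower in KO2, beside all-gene shares of 21.6% and 22.7%, 17.9% and 18.2%, and 20.2% and 18.6%. With the Ctrl vector, 6 were higher and 9 lower in KO1, and 4 were higher and 13 lower in KO2, beside 25.5% and 26.7%, and 23.3% and 26.6%. Col1a2, a collagen I chain, had a log2FC of −5.20 in KO1 Myc and 2.48 in KO2 Myc, each against its own Ctrl group (edgeR adjusted p = 7.88e-16 and 3.69e-13). It is also among the fibroblast or stellate markers, of which 1 was higher and 5 lower of 6 in KO1 Myc (median log2FC −1.19), and 3 were higher and 1 lower in KO2 Myc (median 0.49). The part of these markers in the list's counts was not tested. Among corepressor subunits that Mxd proteins and Mnt recruit, 7 of 15 were higher and 1 lower in KO1 Ctrl, and 6 were higher and 1 lower in KO2 Ctrl, where 25.5% of all genes were higher and 26.7% lower, and 23.3% and 26.6%. Suds3, a Sin3 complex subunit, rose by 0.71 and 0.69 on the log2 scale (adjusted p = 1.61e-08 and 2.76e-08), and Sin3b, a Sin3 scaffold, fell by 0.34 and 0.29 (adjusted p = 0.000956 and 0.00319). Of 11 PRC1.6 subunits, the partners of Mga, 3 were higher and 4 lower in KO1 Ctrl and 4 higher and 5 lower in KO2 Ctrl, where 52.2% and 49.9% of all genes were called in either direction. E2f6, its E2f protein, rose by 0.63 and 0.83 (adjusted p = 1.42e-05 and 6.15e-07), and Tfdp1, the dimer partner of E2f proteins, by 0.91 and 1.00 (adjusted p = 2.76e-09 and 1.21e-09). Of 17 germline genes under Mga and PRC1.6, 2 had a row in the Myc experiment, of which 1 was higher in KO1 Ctrl (25.5% of all genes) and 0 in KO2 Ctrl (23.3%).

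Of 23 genes for Myc turnover and coactivators, 5 were higher and 8 lower in KO1 Ctrl, and 6 higher and 6 lower in KO2 Ctrl, near the shares of all genes (25.5% higher and 26.7% lower, and 23.3% and 26.6%). Usp36, a deubiquitinase that stabilizes Myc, fell by 1.36 on the log2 scale in KO1 Ctrl and by 1.31 in KO2 Ctrl (edgeR adjusted p = 8.44e-11 and 1.83e-10), and rose with the Myc vector by 0.92 in KO1 and 0.86 in KO2 (adjusted p = 2.5e-08 and 5.82e-08). Skp2, a ubiquitin ligase subunit that acts on Myc, rose by 0.73 and 0.80 in the KO Ctrl groups (adjusted p = 3.65e-05 and 1.51e-05), and Cip2a, an inhibitor of the phosphatase PP2A, by 0.75 and 0.96 (adjusted p = 8.06e-07 and 5.26e-08). Of 9 other E-box factors tested, 3 were higher and 1 lower in KO1 Ctrl, and 3 higher and 0 lower in KO2 Ctrl, beside the same shares. Among them, Tfeb, the lysosomal regulator, rose by 1.07 in KO1 Ctrl, 1.33 in KO2 Ctrl and 1.82 in WT Myc, each against WT Ctrl (adjusted p = 3.83e-06, 2.61e-07 and 7.58e-09).

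Txnip, which encodes the thioredoxin-interacting protein and is the best known target of MondoA-Mlx, was higher with the Myc vector in every background. With the Ctrl vector it was at 16.6 and 19.5 CPM for WT, 13.3 and 13.9 CPM for KO1, and 9.93 and 11.7 CPM for KO2. With the Myc vector, the libraries labelled WT, KO1 and KO2 had 169 and 148 CPM, 127 and 140 CPM, and 100 and 129 CPM, with no overlap between vectors. WT gave a log2FC of 3.13 ± 0.123 (edgeR adjusted p = 4.38e-11), KO1 3.29 ± 0.128 (8.59e-12) and KO2 3.41 ± 0.133 (6.19e-12). The list of Mlx and Mondo targets as a whole was mixed, with 2 of its 6 tested genes higher in each of the 3 comparisons and 1, 0 and 2 lower, where 21.6%, 17.9% and 20.2% of all genes were higher and 22.7%, 18.2% and 18.6% lower. Hk2, for example, fell by 0.58 in WT Myc (adjusted p = 2.06e-06).

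The HU experiment asks how the network responds to stalled replication. In WT HU against WT vehicle, 4 of the 9 members passed at an adjusted p below 0.05, all 4 higher, where 9.83% of all genes passed, 6.39% higher and 3.44% lower. In KO HU against KO vehicle, the same 4 members passed, again higher, where 6.45% of all genes passed, 4.65% higher and 1.8% lower. The 4 were Myc, Mxd1, Mxi1 and Mnt. The median log2FC of the 9 members was 0.65 in WT and 0.53 in KO, beside 0 and −0.01 for all genes.

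Myc was at 203 and 162 CPM in WT vehicle and 385 and 331 CPM in WT HU, and at 181 and 178 CPM in KO vehicle and 267 and 253 CPM in KO HU. Every HU library lay above every vehicle library. The log2FC was 0.98 ± 0.117 in WT, or 1.97-fold (edgeR adjusted p = 1.46e-09), and 0.53 ± 0.119 in KO, or 1.45-fold (adjusted p = 0.00118). With HU, Myc was lower in KO than in WT cells (−0.46 ± 0.114, adjusted p = 0.00339), a call lost without WT HU replicate 1 (−0.35, adjusted p = 0.193) or KO HU replicate 2 (−0.43, adjusted p = 0.0762). With vehicle, it did not differ beyond the spread (−0.02 ± 0.122, adjusted p = 0.95). The difference between the HU effects, −0.44 ± 0.167, did not pass either (adjusted p = 0.822). The gene next to Myc, the non-coding Pvt1, which was chosen after its values were seen, was at 27 and 24.4 CPM in WT vehicle, 73.8 and 82.1 CPM in WT HU, 22.4 and 20.0 CPM in KO vehicle and 37.1 and 41.5 CPM in KO HU. With HU it was 3.03-fold higher in WT (edgeR adjusted p = 1.34e-08) and 1.86-fold higher in KO (adjusted p = 0.00562). In the Myc experiment, Pvt1 did not pass in KO1 Ctrl or KO2 Ctrl against WT Ctrl (log2FC 0.10 and 0.06, adjusted p = 0.384 and 0.633). Nor did it pass with the Myc vector in KO1 or KO2 (0.10 and 0.17, adjusted p = 0.39 and 0.138). It was higher in KO1 Myc and KO2 Myc than in WT Myc (0.41 and 0.43, adjusted p = 0.00282 and 0.00121).

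Mxi1 was at 38.6 and 40.6 CPM in WT vehicle, 63.6 and 60.3 CPM in WT HU, 35.4 and 40.1 CPM in KO vehicle, and 103 and 97.2 CPM in KO HU. All 4 HU libraries lay above the vehicle libraries, and those of KO above those of WT. The log2FC was 0.65 ± 0.184 in WT (edgeR adjusted p = 0.0134) and 1.40 ± 0.178 in KO, or 2.65-fold (adjusted p = 9.18e-09). The WT call was lost without any 1 of its 4 libraries (adjusted p = 0.0616 to 0.138). Under HU, Mxi1 was higher in KO than in WT (0.69 ± 0.167, adjusted p = 0.00274), a call lost without KO HU replicate 1 (0.65, adjusted p = 0.0544) or WT HU replicate 2 (0.66, adjusted p = 0.0702). The difference between its HU effects was 0.76 ± 0.257 and did not pass (adjusted p = 0.707).

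Mnt was at 18 and 24.4 CPM in WT vehicle, 50.9 and 50.6 CPM in WT HU, 24.4 and 25.4 CPM in KO vehicle, and 43.1 and 37.9 CPM in KO HU, with no overlap between HU and vehicle. It rose in WT (1.25 ± 0.229, or 2.38-fold, edgeR adjusted p = 4.42e-05). In KO its rise passed narrowly (0.70 ± 0.229, adjusted p = 0.0489), and the call was lost without any 1 of the 4 libraries (0.61 to 0.79, adjusted p = 0.102 to 0.333), with RLE size factors (0.0512) and in DESeq2 (0.158). The difference between the effects was −0.55 ± 0.326 (adjusted p = 0.947).

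Mxd1 rested on few reads, with 4 and 16 counts in WT vehicle, 36 and 32 in WT HU, 6 and 10 in KO vehicle, and 44 and 38 in KO HU. Its level was 1.71 and 6.01 CPM, 11.5 and 11.1 CPM, 2.44 and 3.34 CPM, and 15.6 and 15 CPM. Every HU library was above every vehicle library. In KO the log2FC was 2.37 ± 0.512, or 5.17-fold (edgeR adjusted p = 0.000827). In WT it was 2.83-fold higher, with a standard error of 0.504 on the log2 scale (adjusted p = 0.0441), and this call was lost without WT vehicle replicate 1 (0.89, adjusted p = 0.382), without WT HU replicate 1 (1.48, 0.19) or replicate 2 (1.52, 0.154), and in DESeq2 (0.114). Mxd4, with 4 to 36 counts per library, did not pass in WT or KO (adjusted p = 0.166 and 0.408).

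**Figure D5:**
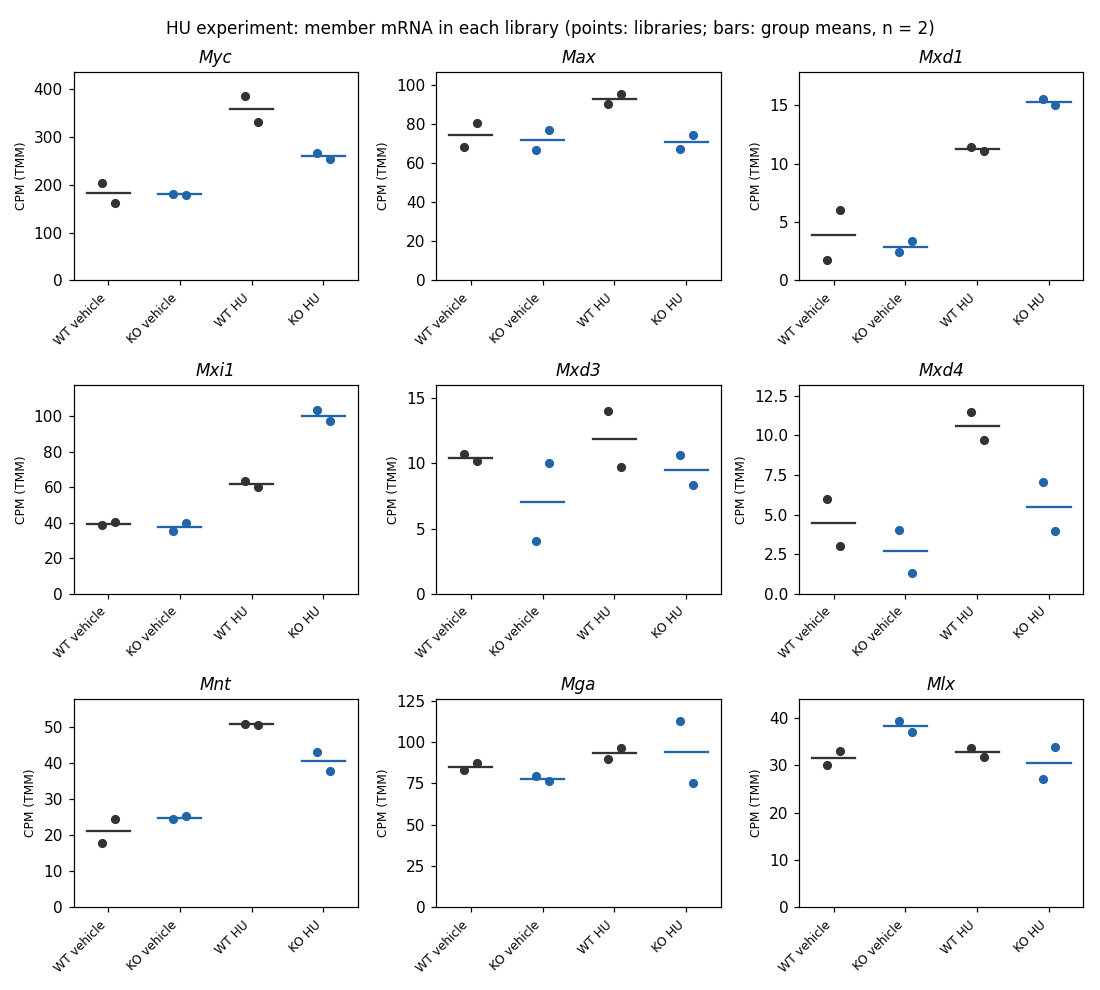
Level of each member in each library of the HU experiment, in TMM-scaled CPM (vertical axes, each from 0), by group (horizontal axes), with points for libraries and bars for the mean of 2. In Myc, Mxd1, Mxi1 and Mnt the HU libraries lie above all vehicle libraries, and in Mlx the highest group is KO vehicle, at 39.4 and 37.1 CPM.

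Max, Mxd3, Mxd4, Mga and Mlx passed in none of the comparisons of HU with vehicle or of KO with WT at the same treatment. Max was at 68.5 and 80.4 CPM in WT vehicle, 66.7 and 76.8 CPM in KO vehicle, 90.4 and 95.6 CPM in WT HU, and 67.5 and 74.3 CPM in KO HU. Its difference between KO HU and WT HU, −0.39 ± 0.158, did not pass (edgeR adjusted p = 0.0999), and passed at 0.0458 with these groups alone in the fit. Mxd3 was at 10.7 and 10.2 CPM in WT vehicle and at 4.07 and 10 CPM in KO vehicle, on 25, 27, 10 and 30 counts. The log2FC of Mxd3 in KO vehicle against WT vehicle was −0.53 ± 0.452 (edgeR adjusted p = 0.515). That of Prelid1, which shares bases with Mxd3, was 0.08. In the Myc experiment, KO1 Ctrl and KO2 Ctrl gave 2.75 ± 0.208 and 3.06 ± 0.199 for Mxd3 against WT Ctrl. For Myc, the log2FC was −0.02 ± 0.122 with vehicle, and −1.19 ± 0.0564 and −1.02 ± 0.0561 in KO1 Ctrl and KO2 Ctrl. Changes of that size were not seen with vehicle, and the difference between the experiments was not tested. In KO vehicle against WT vehicle, 0 of the 9 members passed in edgeR's test, 0 reached an unadjusted p below 0.05 and 0 passed in DESeq2. There, 12% of all genes passed in edgeR, 6.29% higher and 5.74% lower. The difference between the HU effects gave 0 members in edgeR and 0 in DESeq2, with 2 (Myc and Mxi1) at an unadjusted p below 0.05, where 0.0714% of all genes passed, 0.0446% higher and 0.0268% lower. In KO HU against WT HU, 2 members passed, 1 higher and 1 lower, where 11% of all genes did, 5.75% higher and 5.25% lower.

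Of the 53 canonical Myc-activated genes, 3 were higher and 9 lower with HU in WT, and 2 were higher and 4 lower in KO. Of all genes, 6.39% and 4.65% were higher, and 3.44% and 1.8% lower. Odc1, ornithine decarboxylase, rose by 0.64 and 0.69 on the log2 scale (edgeR adjusted p = 4.49e-06 and 1.38e-06), and Ppan, a ribosome assembly factor, fell by 0.60 in WT (adjusted p = 0.00837). Of 18 canonical Myc-repressed genes tested, 9 were higher and 0 lower with HU in WT, and 9 higher and 0 lower in KO, where 6.39% and 4.65% of all genes were higher, with a median log2FC of 0.82 and 0.84. Ndrg1, a stress-induced gene, rose by 4.33 and 4.55 (adjusted p = 6.9e-25 and 7.85e-24). In WT, Cdkn1a, the p53 target p21, rose by 3.16 (adjusted p = 3.14e-30), and in KO, Btg2, another p53 target, by 3.20 (adjusted p = 2.01e-21). The list holds targets of p53 as well as of Myc, and the part of either was not tested.

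Txnip was at 11.6 and 15 CPM in WT vehicle, 220 and 201 CPM in WT HU, 13.4 and 11.4 CPM in KO vehicle, and 142 and 115 CPM in KO HU. It rose by 3.97 ± 0.19 on the log2 scale in WT and by 3.38 ± 0.196 in KO (edgeR adjusted p = 1.31e-26 and 3.24e-22), and was lower in KO HU than in WT HU (−0.71 ± 0.14, adjusted p = 0.000199). Arrdc3, another arrestin-domain gene of the Mlx and Mondo list, rose by 1.86 and 2.08 (edgeR adjusted p = 8.2e-09 and 9.85e-09). Thus 2 of the 6 tested genes of the list were higher and 0 lower with HU in each line. Of all genes, 6.39% were higher and 3.44% lower in WT, and 4.65% and 1.8% in KO. Mlx itself was at 27.2 to 39.4 CPM over the 8 libraries and did not pass in either HU comparison. Of the 23 turnover and coactivator genes, 1 was higher and 2 lower with HU in WT, and 0 higher and 1 lower in KO. These counts stand beside the same shares of all genes, 6.39% higher and 3.44% lower in WT, and 4.65% and 1.8% in KO. Usp36 rose in WT (0.96, edgeR adjusted p = 1.71e-05) and did not pass in KO (adjusted p = 0.392). Usp7, a deubiquitinase, fell by 0.37 in WT and 0.41 in KO (adjusted p = 0.0301 and 0.0189), and Cip2a fell by 0.45 in WT (adjusted p = 0.0192).

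Over the 8 libraries of the HU experiment, the Pearson correlation of log2 CPM was 0.905 between Mxd1 and Mxi1, 0.891 between Mxd1 and Mnt and 0.881 between Myc and Mnt, as a description of libraries that share their cells within a group. The genes most like Myc, of 10250 compared, were Cnnm4, a magnesium transporter (0.984), Zbtb38, a zinc finger protein that binds methylated DNA (0.983), and Fam193a (0.976).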

How the data were processed

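RNA-seq libraries of p19/Nras cells were analysed from 2 deposited tables. Per the labels and the study's methods, the authors mapped reads to mm9 with STAR 2.5.4 and deposited counts, whole numbers of reads per gene. The counting tool, annotation and strand setting are not given in the sources used here. Of counts from 1 to 50, 48.4% (Myc experiment) and 71.9% (HU experiment) were even. Deposited tables of the authors' own edgeR comparisons (fold changes and p-values) were not used.

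Each experiment was fitted alone with edgeR 4.0.16 under R 4.3.3: TMM scaling (factors from 0.958 to 1.02), 1 coefficient per group, all libraries in the fit, the quasi-likelihood test and Benjamini-Hochberg adjustment over all genes. Thresholds of 0.01 and 0.05 followed the study. Totals ran from 14753177 to 17949430 and from 2315327 to 3082202 counts. The procedure was tested on simulated data. Alternatives were DESeq2 1.42.0, RLE factors, other filters, the compared groups or the Ctrl-vector libraries alone, a replicate block, halved counts, an absolute log2FC of at least 1, and leaving out each library. Named genes are the 9 members, Trim33, the 2 called genes with the largest rise and fall per list and comparison at a mean of at least 5 CPM, and the 3 genes most like Myc in each experiment, of which 1 is not reported here. Prelid1 and Psmc3ip were named for their overlap with members, and Mlxip, Pvt1 and Mycl after their values were seen. The members and lists were chosen with earlier results of these data known. Gene positions and exon lengths came from GENCODE vM1 on NCBIM37, and promoters from RefSeq on GRCm38.p6.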

Additional observations from a re-analysis of the deposited data

Results flagged for a closer look

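The response to the Myc vector differed between a Trim33-KO line and Trim33-WT cells for several members, by edgeR's quasi-likelihood test of the interaction. For KO1 against WT, the difference in log2FC was 1.66 for Myc, 0.61 for Max, −2.56 for Mxd3, −0.63 for Mxd4 and 1.07 for Mga. For KO2 against WT, it was 1.09 for Myc, 0.50 for Max, −2.74 for Mxd3, −0.69 for Mxd4 and 0.47 for Mnt. The 2 sets share the WT libraries. Trim33 mRNA was higher in KO1 Myc than in WT Myc, and not in KO2 Myc. The part of the Myc-vector libraries in these differences was not tested. The 2 KO lines differed with the Ctrl vector in Mga, by 0.38 (KO2 minus KO1). With 2 libraries per group, which of a pair stands apart cannot be told.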

How the results depend on the processing

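The 53 member differences that passed gave 638 values under the alternatives, of which 540 kept direction and call, 98 kept direction and lost the call, and 0 reversed. Of the 98, 36 were lost to the added criterion of an absolute log2FC of at least 1 and 47 to leaving out 1 library. Against WT Ctrl, that criterion left 2 members for KO1 and 2 for KO2, and for WT Myc 1. It left 1 in KO1 Myc against KO1 Ctrl, 1 in KO2 Myc against KO2 Ctrl, 0 in KO1 Myc and 1 in KO2 Myc against WT Myc, 3 and 2 in the interactions for KO1 and KO2, 2 in WT HU and 2 in KO HU against vehicle, and 0 in KO HU against WT HU. With the compared groups alone, KO1 Myc and KO2 Myc against WT Myc each gave 1 member, and a filter at 5 CPM in every library, which leaves out the rarest members, gave 1 for KO2 Myc against WT Myc.

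Leaving out 1 library gave 3 to 5 members for KO1 Myc against KO1 Ctrl, 1 to 2 for KO1 Myc against WT Myc, 1 to 3 for KO2 Myc against WT Myc, 3 to 6 for the KO2 interaction, 2 to 3 for WT HU against vehicle and 1 for KO HU against WT HU in each case. Myc in KO vehicle against WT vehicle changed sign without 1 library (log2FC from −0.18 to 0.15 over the 4 fits, 0.15 without WT vehicle replicate 1). The lone library left in a group is then assumed to vary like the others.

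Replicate numbers were not taken to pair the libraries: deviations of equal-numbered libraries correlated at −0.356 to 0.485 over 15 pairs of groups, with 4 pairs above 0.1 (the highest WT Myc with KO1 Myc), and at −0.0241 to 0.0875 over 6. With a replicate block, 7 members passed in KO1 Ctrl, 6 in KO2 Ctrl and 6 in WT Myc, each against WT Ctrl, 5 and 4 for the Myc vector in KO1 and KO2, 2 and 2 for KO1 Myc and KO2 Myc against WT Myc, 5 and 5 in the interactions, 4 and 4 for HU in WT and KO, 2 for KO HU against WT HU and 0 in the last 2, the same numbers as without it. Halving the counts of the HU experiment, of which many are even, lost 0 of 10 calls. Depth limits Mxd1, Mxd3 and Mxd4 in the HU experiment.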

Other observations

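Mycl, which encodes L-Myc and was chosen here after its values were seen, stood apart between the experiments. In the HU experiment it had 0 and 4 counts in WT vehicle, 0 and 0 in WT HU, 17 and 14 in KO vehicle, and 19 and 20 in KO HU. It was at least 7.33-fold higher in KO HU than in WT HU, taking a floor of 3 counts per library for WT HU (edgeR adjusted p = 0.000128). In the Myc experiment it had 309 and 288 counts in WT Ctrl, or 21.8 and 19.7 CPM, and fell in KO1 Ctrl (log2FC −0.67, adjusted p = 2.66e-05). In KO2 Ctrl it did not pass (−0.31, edgeR adjusted p = 0.0118). With vehicle, it was higher in KO than in WT on the few counts above (log2FC 2.79, adjusted p = 0.0297). Its difference between KO1 Ctrl and WT Ctrl thus had the opposite sign to that between KO and WT with vehicle, and with HU. The tables were normalized separately, and whether the WT cells of the 2 experiments are the same line is not given in the sources used here.

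Mxd3 levels also stood apart between the WT controls of the experiments, at 1.27 and 1.16 CPM in WT Ctrl and 10.7 and 10.2 CPM in WT vehicle, again on separate scales and with no test.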
